A study of Drosophila melanogaster with 6 samples.

Results

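The 9 core genes of Decapentaplegic (Dpp) signalling were followed through a pulse and chase of labelled RNA in intact Drosophila embryos: the ligands dpp and gbb, the receptors tkv and put, the nuclear effectors Mad, Med and shn, the repressor brk and the feedback inhibitor Dad. They were chosen by gene symbol in the annotated array table and make up 9 of 13141 named genes. Embryos of stage 12 to 15 were permeabilized and kept for 1 hour at 30°C in medium with 1 mM 4-thiouridine, a nucleoside that every tissue builds into new RNA. They were then moved to medium with 10 mM uridine for 1 or 3 hours, and the thiol-labelled RNA (TU-RNA) was purified and hybridised to Agilent one-colour arrays. There were 6 arrays in 6 groups: the pulse and the chases of 1 and 3 hours with uridine only (UO), and the same time points in a series in which the chase medium also held actinomycin D (U+actD), an inhibitor of RNA polymerase. All embryos were labelled wildtype and carried UAS-T.g.UPRT with no GAL4, so that the uracil phosphoribosyltransferase of the transgene was not driven in any tissue. Material of one time point was pooled before extraction and each group is 1 array. The p-values below therefore rest only on how far the UO and U+actD series departed from a common course. That spread is shared in part or in full between genes, so it is not a gene's own alone. Whole embryos were measured, in which fewer cells of a type and less RNA per cell cannot be told apart.

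Dpp is a bone morphogenetic protein (BMP) that is secreted and binds a complex of type I and type II receptors. The type II receptor phosphorylates the type I receptor, which phosphorylates Mad, and Mad with its partner Med carries the signal into the nucleus. There the Smads and Shn switch off brk, whose product represses Dpp targets, and Dad, itself switched on by the pathway, inhibits Mad. At the stages studied here Dpp is known from the leading edge of the dorsal epidermis during dorsal closure, from the visceral mesoderm of the midgut and from the guidance of tracheal branches.

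All 9 genes were above the background threshold on all 6 arrays through at least 1 probe. No member probe had 50% or more of its pixels saturated on any array, and smaller shares of saturated pixels were not counted. They were read by 16 probes, of which 15 were kept, because Med probe 4 was above background on 0 arrays. Signals are given from the scanner files after scaling to the spike-in RNA. Beside them stands the normalised table of the authors, since the values of both sources differed in both series. In U+actD the table was the scanner signals times 1 factor per array. There it is no second measurement beyond its scaling and the probes it lacks. Those factors were 1, 1.92 and 1.77 at pulse, 1 hour and 3 hours, against spike-in factors of 1, 0.83 and 0.99 used here. The U+actD shares of the members were 2.16 to 2.59 times as high in the table at 1 hour and 1.43 to 2.46 times at 3 hours. In UO the table's rank correlation with the scanner signals was 0.88, 0.92 and 0.88 at pulse, 1 and 3 hours, over the 9654 probes with a table value. Over all probes the UO scanner arrays were dim, with median net signals of 56, 71 and 50 against background thresholds of 51, 54 and 50. In U+actD the medians were 1276, 489 and 162 against 353.8, 128.4 and 108.2. Above the threshold were 54.6%, 57.1% and 48.2% of probes in UO and 72.2%, 78.7% and 61.8% in U+actD. The UO scanner files hold a local background of 0 at 51.6%, 46.0% and 54.7% of spots. At least 1 local background in the duplicate spots of dpp, gbb, shn and Med probe 1 was 0 on every UO array. Duplicate spots of the members differed by a median factor of 1.45 in UO and 1.10 in U+actD (n = 18 pairs each). Of 14 tissue markers of such embryos, 12 were above background on both pulse arrays, sha, an epidermal gene, was on 1 of them, and nos, a germ cell gene, did not pass the filter on dim probes.

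By the end of the 3-hour chase labelled RNA of all 9 genes had fallen, as it had for nearly every gene on the array. In the scanner signals 9 of 9 members were lower at 3 hours than at the pulse, against 98.6% of the 9661 genes tested (0.0207% were higher), and 9 of 9 were lower in the authors' table, against 94.8% of 7895 genes (0.0507% higher). The estimates over both series ran from −3.84 (dpp) to −2.54 (tkv) log2 units in the scanner signals (SE 0.70) and from −3.17 (put) to −1.72 (gbb) in the table (limma with Benjamini-Hochberg adjustment, adjusted p from 8.97e-07 to 0.000389 and from 0.000392 to 0.0026). Their median was −3.49 against −3.00 for all genes in the scanner signals, and −2.76 against −2.42 in the table. The scanner SE of 0.70 was the same for every member, so the scanner p-values rest on 1 spread pooled over genes. That spread also holds any shift between the series common to all genes. At 1 hour 0 of 9 members passed the test in either source, where 0.435% and 0% of all genes passed, and 4 scanner and 6 table members were lower at an unadjusted p below 0.05, as were 31.3% and 31.7% of all genes. Without either 3-hour array, 3 members (dpp, tkv and shn) and 18.8% of all genes passed as lower in the table at 1 hour. The 3-hour fall is measured against the spike-in RNA. With the arrays scaled to their own 75th percentile instead, which removes a loss shared by all genes, 0 of 9 members passed. Without the series as a block 0 of 9 passed in the scanner signals. In each of these settings 0 of 9661 genes passed.

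**Figure D1:**
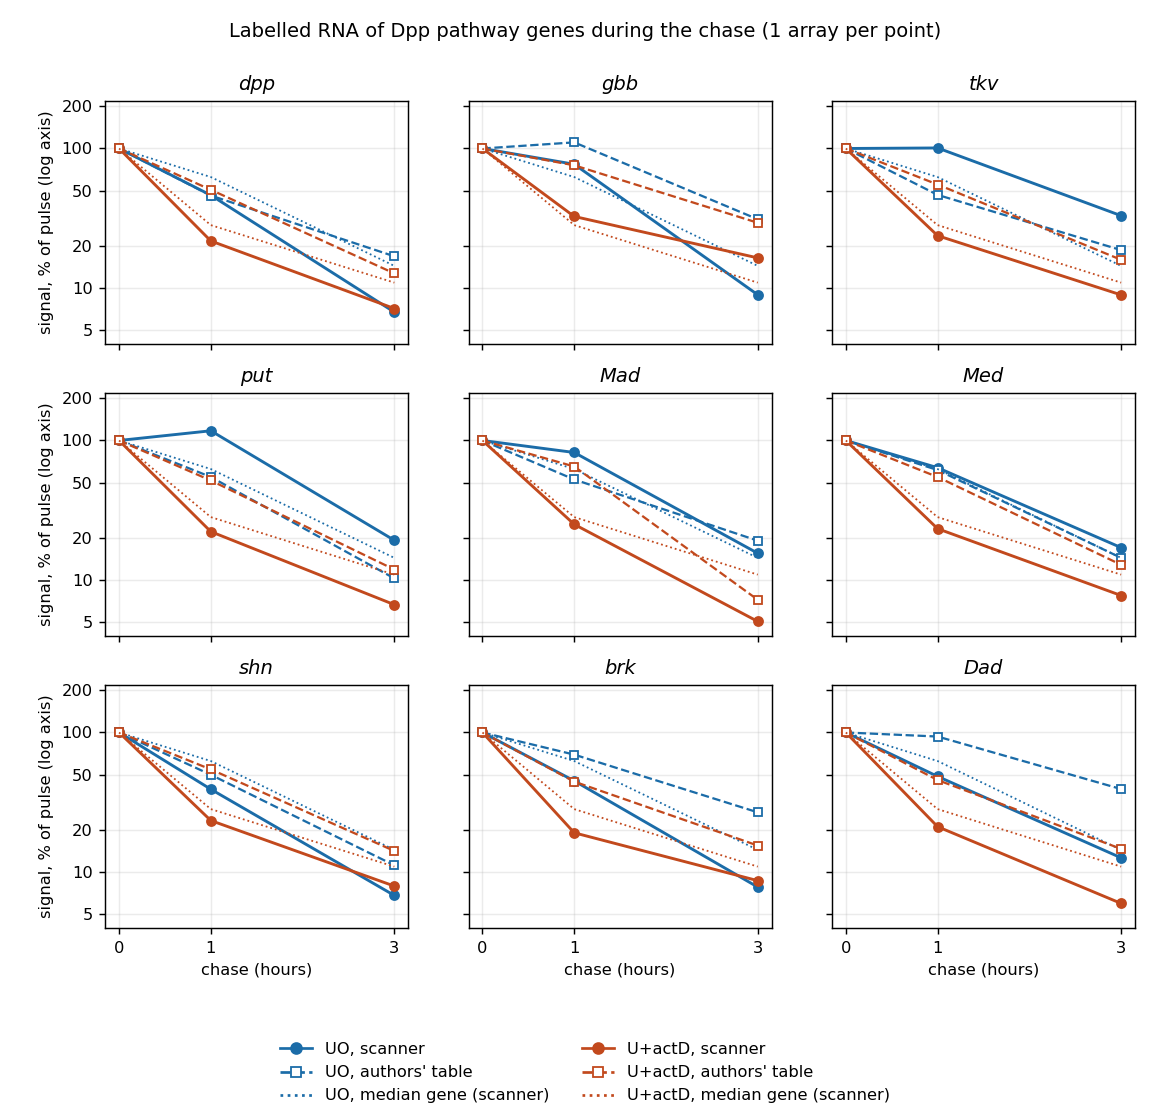
Signal of each gene as a percentage of its pulse array (log axis) against hours of chase, 1 array per point, for UO (blue) and U+actD (orange), from the scanner (filled circles) and the authors' table (open squares), with the median gene of each series dotted. In U+actD the scanner curves of 8 genes end below the median gene and gbb ends above it, whereas the UO curves of dpp, gbb, brk and Dad end higher in the table than in the scanner signals (2.51 to 3.47 times) and those of tkv and put lower (0.57 and 0.53 times).

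The ligand dpp, the BMP after which the pathway is named, lay below the median gene in both series. Its UO signal was 744.5 at the pulse, 345 after 1 hour and 50.3 after 3 hours. With actinomycin D it was 19730.5, 4303 and 1414. At 1 hour 46.3% of the pulse signal was left in UO and 21.8% in U+actD. At 3 hours 6.76% was left in UO and 7.17% in U+actD, so these shares lay close together at that time. The authors' table gave 16.9% in UO and 12.8% in U+actD. For comparison, the median gene kept 14.5% and 11.0% from the scanner and 20.1% and 17.2% from the table. Log2 values relative to the median gene are given after each array was centred on its median level, which differed from the median of the gene changes by at most 0.19 log2 units and put 2 of 72 member values on the other side (Med in UO at 1 hour from the scanner, Mad in UO at 3 hours in the table). The dpp mRNA was thus below the median gene at 3 hours in both series and both sources, at −0.97 (UO) and −0.42 (U+actD) log2 units from the scanner and at −0.16 and −0.35 from the table. Over both series the scanner estimate relative to the median gene was −0.70 ± 0.39 (SE, limma adjusted p = 0.597).

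The second ligand, gbb, a BMP that also serves as a retrograde signal at the larval neuromuscular junction, kept more of its label than any other member in U+actD. Signals in that series were 27875.5, 9103 and 4600 at pulse, 1 hour and 3 hours, which left 32.7% and 16.5% of the pulse. The UO signals were 3356, 2589 and 302, and left 77.1% and 8.99%. In U+actD gbb was therefore above the median gene at 3 hours (0.78 log2 units) and in UO below it (−0.56). The table gave a different UO course: 111% of the pulse at 1 hour and 31.2% at 3 hours, beside 75.8% and 29.4% in U+actD. Read from the table, gbb was above the median gene at 3 hours in both series (0.72 and 0.86 log2 units) and had the lowest p of the members there, 0.79 ± 0.30 (SE, limma adjusted p = 0.192), which did not pass.

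Of the receptors, put encodes the type II receptor, shared with Activin ligands. Its U+actD signals were 21300.0, 4748 and 1426, with 22.3% and 6.69% of the pulse left at 1 and 3 hours. In UO the signals were 741.5, 870 and 143, with 117% and 19.3% left. The UO signal of put at 1 hour was thus no lower than at the pulse, while in U+actD it was below the median gene at both times (−0.31 and −0.52 log2 units). The table did not hold the UO value above 100%: put stood at 54.8% and 10.3% of its pulse in UO and at 51.8% and 11.9% in U+actD, below the median gene in both series. The relative change at 3 hours was 0.01 ± 0.45 log2 units from the scanner and −0.66 ± 0.29 from the table (SE, limma adjusted p = 0.998 and 0.234).

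The type I receptor tkv was the dimmest member and its values depended on the probe. Averaged over both probes, UO signals were 98.0, 98.9 and 32.4 and U+actD signals 4464, 1062 and 400.5. That left 33.1% of the pulse in UO at 3 hours, the highest share of any member in that series, and 8.97% in U+actD. Its 3-hour fall, called with all arrays, was not called without the U+actD pulse array (−1.55 log2 units, limma adjusted p = 0.0647). In the table the shares were 18.8% and 16.0%, close to the median gene in both series (−0.01 and −0.02 log2 units). Probe 1 (transcript CG14026-RD) had net signals before scaling of 188.5, 1086.5 and 177 in UO and 19889.5, 4635.5 and 681 in U+actD. Scaled, its 1-hour UO value was 235% of the pulse, and its U+actD values were 19.3% and 3.39%. The authors' table listed the same probe at 8431, 3414 and 731 in UO, which is 40.5% and 8.67% of the pulse. Probe 2 (transcript CG14026-RA) was under the threshold on the UO pulse and 1-hour arrays, so the scanner gave no measured loss for it in UO, and the UO scanner share of the gene partly rests on values set to that threshold. The table listed it at 53.6% and 40.6% of the pulse in UO. Its U+actD signals were 1002, 356 and 240, against thresholds of 353.8, 128.4 and 108.2, and left 29.4% and 23.7% of the pulse.

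Mad, the Smad phosphorylated by the activated receptor, ended lowest of the members in U+actD. Its signals there were 18118, 4554 and 920, with 25.1% and 5.08% of the pulse left. UO signals were 434, 356 and 67.7, with 82.1% and 15.6% left. Against the median gene Mad stood at −0.92 log2 units in U+actD and 0.23 in UO at 3 hours. In U+actD probe 1 was at −1.24 and probe 2 at −0.60. In UO the probes lay on opposite sides of the median gene, probe 1 at −0.30 and probe 2 at 0.77. The single Mad probe in the table gave −1.16 and 0.02, that is 7.26% of the pulse in U+actD and 19.2% in UO. At 3 hours both sources therefore placed Mad lower under actinomycin D than with uridine only. In U+actD the table holds the probe 1 signals times 1 factor per array, so it is no second measurement there. At 1 hour the table had the opposite order, −0.32 in UO and 0.083 in U+actD. At the pulse Mad was already higher in U+actD than in UO, by 1.01 (scanner) and 1.40 (table) log2 units after centring. The test of the difference in slope between the series did not pass for Mad in either source (−0.41 ± 0.24 and −0.48 ± 0.27 log2 units per hour, U+actD minus UO, SE, limma adjusted p = 0.332 and 0.657).

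Med, the common-mediator Smad that pairs with Mad, was read by 4 kept probes, of which the 3 bright ones lay near the median gene at 3 hours. At 1 hour these 3 ran from −0.91 to −0.19 log2 units in UO and from −0.35 to 0.053 in U+actD, from the scanner. Mean UO signals were 1186, 758 and 203 (63.9% and 17.1% of the pulse), and U+actD signals were 31831.5, 7447 and 2478 (23.4% and 7.78%). In the table it stood at 61.5% and 14.5% in UO and 54.8% and 12.9% in U+actD, with UO close to the scanner value at both times. Probes 1, 3 and 5 were bright, with U+actD pulse signals from 47558 to 55301.5, and left 9.43% to 9.68% of the pulse in U+actD at 3 hours and 12.3% to 14.2% in UO. Probe 2 was dim. It had 7621, 1967 and 327 in U+actD (4.25% left) but 90, 334 and 101 before scaling in UO, a scaled 152% at 1 hour and 36.5% at 3 hours. The 3 bright Med probes lay between −0.10 and 0.10 log2 units of the median gene at 3 hours over both series of the scanner signals.

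The large zinc finger protein Shn joins the Smads at the brk silencer. Its UO signals were 1309, 514 and 89.4, leaving 39.3% and 6.83% of the pulse, and its U+actD signals were 31120.5, 7297 and 2480, leaving 23.4% and 7.97%. It was below the median gene at 1 and 3 hours in both series and both sources. At 3 hours 11.2% was left in UO and 14.2% in U+actD in the table. The relative change was −0.61 ± 0.41 log2 units from the scanner and −0.47 ± 0.30 from the table (SE, limma adjusted p = 0.669 and 0.362). Of the 9 members, dpp and shn were the 2 that lay below the median gene at both times in both series and both sources.

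For brk, the repressor of Dpp targets that the pathway itself silences, UO signals were 1221, 550 and 95.7, with 45.1% and 7.84% of the pulse left. Those in U+actD were 21648, 4150 and 1886, with 19.2% and 8.71% left. The 1-hour U+actD share was the lowest of the members, whereas the 3-hour share was above that of 6 others. The table, which in U+actD holds the same brk signals times 1 factor per array, also had brk lowest there at 1 hour (44.5%). It placed UO at 69.5% at 1 hour and 26.8% at 3 hours, above the median gene. The relative change at 3 hours was −0.45 ± 0.40 log2 units from the scanner and 0.22 ± 0.30 from the table (SE, limma adjusted p = 0.793 and 0.677).

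Dad, an inhibitory Smad that Dpp signalling switches on, differed between the sources in UO. The scanner signals were 880, 427 and 112 in UO, or 48.5% and 12.7% of the pulse. The U+actD signals were 26984, 5719 and 1616, or 21.2% and 5.99%. The table gave 93.5% and 39.4% in UO, the highest 3-hour share of any member, beside 45.7% and 14.7% in U+actD. Relative to the median gene at 3 hours, Dad in UO was at −0.06 log2 units from the scanner and at 1.06 from the table. Its probes also parted in U+actD: probe 1 left 8.25% of the pulse and probe 2, which is not in the table, 4.35%.

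Relative to the median gene, 0 of 9 members passed the test at 3 hours or at 1 hour in either source. With 1 array per group, this does not show that their labelled RNA kept pace with the median gene. Among all genes 0% passed in the scanner signals at either time, with 1080 genes at an unadjusted p below 0.05 at 3 hours and 160 at 1 hour, while 1.58% passed in the table at 3 hours (0.127% lower and 1.46% higher) and 0% at 1 hour. Within U+actD 8 of 9 members, all but gbb, were below the median gene at 3 hours, where 58.1% of all genes were above it from the scanner and 53.7% from the table. Within UO tkv, put, Mad and Med were above it in the scanner signals, and gbb, brk and Dad in the table. Of all genes 55.8% (scanner) and 55.1% (table) were above it in UO. Mad was at 0.022 in the UO table after centring but kept 19.2% of its pulse there against 20.1% for the median gene, so its side depends on the measure. The other 6 named here lay on opposite sides in the UO scanner signals and the UO table. The U+actD sides at 3 hours were the same for all 9, whereas at 1 hour Mad was at −0.13 from the scanner and at 0.083 in the table. Both sources hold the same U+actD signals apart from array factors and probes missing from the table, so the shared sides are not a second measurement.

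**Figure D2:**
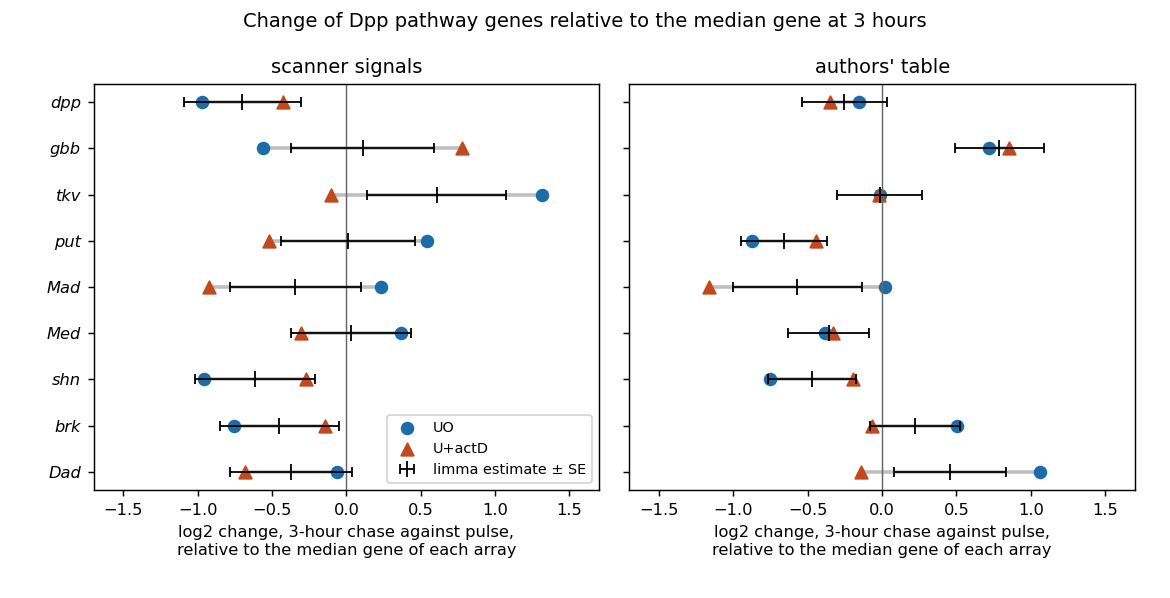
Log2 change from pulse to 3-hour chase relative to the median gene of each array, for UO (circles, 1 array per time) and U+actD (triangles), with the limma estimate over both series and its SE (black bars), from the scanner signals (left) and the authors' table (right). In the scanner signals the triangles of gbb alone lie above 0, and in the table gbb lies above 0 in both series (0.72 and 0.86).

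The question of the design was whether the chase with actinomycin D differed from the chase without it. After the chase to pulse ratios were equalised between the series, the slope difference passed the test for 0 of 9 members in either source. Of all genes 5.32% passed in the scanner signals (1.87% lower, 3.45% higher) and 2.74% in the table (0.861% lower, 1.87% higher). The scanner differences, U+actD minus UO, ran from −0.48 ± 0.24 log2 units per hour for tkv to 0.45 ± 0.24 for gbb (SE, limma adjusted p = 0.258 and 0.289). In the table they ran from −0.48 for Mad to 0.16 for shn (SE 0.27, adjusted p = 0.657 and 1.00). The 95% intervals of the member differences include 0 in 9 of 9 members and reach from −0.98 to 0.96 log2 units per hour from the scanner and from −1.01 to 0.69 from the table. With normexp background correction the slope of 1 member passed, Mad (−0.50 log2 units per hour, limma adjusted p = 0.0486), where 6.04% of all genes were lower and 5.54% higher.

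**Figure D3:**
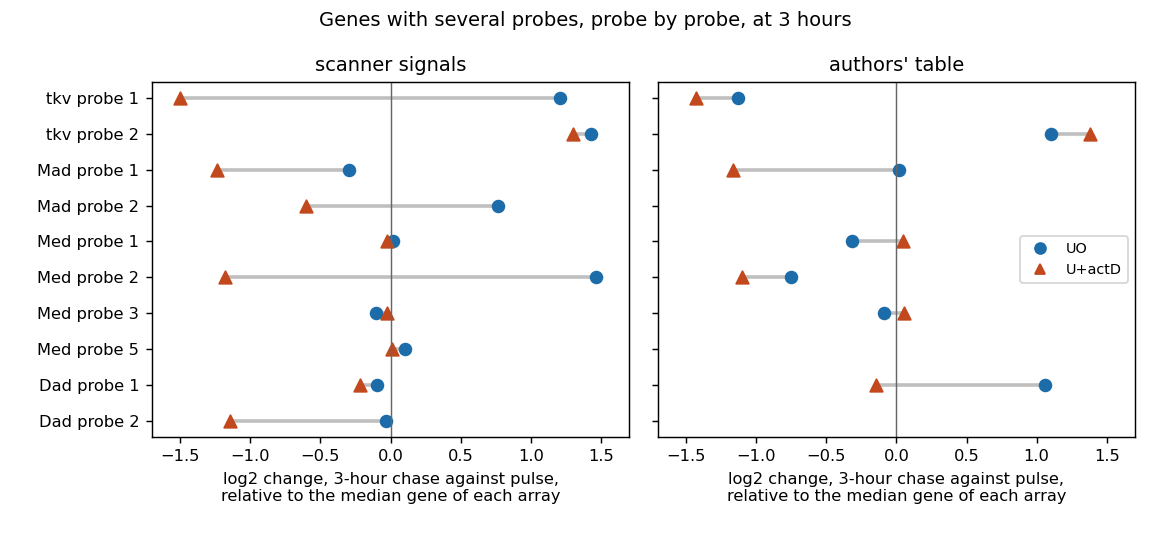
The same relative log2 change at 3 hours for each kept probe of tkv, Mad, Med and Dad, UO as circles and U+actD as triangles, from the scanner signals (left) and the authors' table (right, with no point where the table lacks the probe). The tkv probes lie at −1.50 and 1.30 in U+actD (scanner), the bright Med probes 1, 3 and 5 lie together near 0, and the UO scanner point of tkv probe 2 rests on values set to the threshold.

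At 3 hours the probes of a gene parted most for tkv in U+actD and in the table, and most for Med in the UO scanner signals (−0.10 to 1.46 log2 units). In U+actD probe 1 was at −1.50 and probe 2 at 1.30 log2 units against the median gene at 3 hours, and in the table both series showed that split (−1.13 and 1.10 in UO, −1.43 and 1.38 in U+actD). In those cases the gene value of tkv near the median is the mean of a probe well below and a probe well above it. Probe 2 was the dimmer probe throughout, and the part of its low signal in this difference was not tested. In the UO scanner signals tkv probe 1, Mad probe 2 and Med probe 2 were above the median gene (1.20, 0.77 and 1.46). These 3 had the lowest UO pulse signals of the kept probes other than tkv probe 2 (188.5, 294 and 90). Also above the median gene were tkv probe 2 (1.43) and the brighter put probe 1, Med probe 5 and Med probe 1 (0.54, 0.10 and 0.016). The UO pulse signals of put probe 1, Med probe 5 and Med probe 1 were 741.5, 2707 and 2938.5. Whether dimness had a part in these values was not tested.

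Half-lives from a single exponential were near 1 hour for most members. In the scanner signals they ranged from 45.8 minutes (dpp) to 105 minutes (tkv) in UO and from 43.1 minutes (Mad) to 73.8 minutes (gbb) in U+actD, and members with an adjusted R2 of at least 0.75 (8 in each series) had medians of 55.0 and 50.7 minutes. All genes with such a fit had medians of 58.2 and 54.2 minutes. Half-lives from the table were longer: 54.1 minutes (put) to 127 minutes (Dad) in UO and 45.9 minutes (Mad) to 99.7 minutes (gbb) in U+actD, with medians of 74.2 (8 members) and 63.6 minutes (9 members) against 72.4 and 67.0 minutes for all genes, again over fits of at least that R2. The fit of put in UO and of brk in U+actD (scanner) and of gbb in UO (table) had an adjusted R2 under 0.75 (0.68, 0.71 and 0.69). The longest half-life in U+actD belonged to gbb and the shortest to Mad in both sources. The sources hold the same U+actD signals apart from 1 factor per array and the probes missing from the table, so this is not a second measurement. In UO the order changed with the source, tkv being longest from the scanner and Dad from the table. The UO scanner value of tkv is not firm: its probes fitted singly had an adjusted R2 of 0.042 and 0.47, and probe 2 was set to the threshold on 2 of the 3 arrays. Each line rests on 3 arrays and no test was made.

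**Figure D4:**
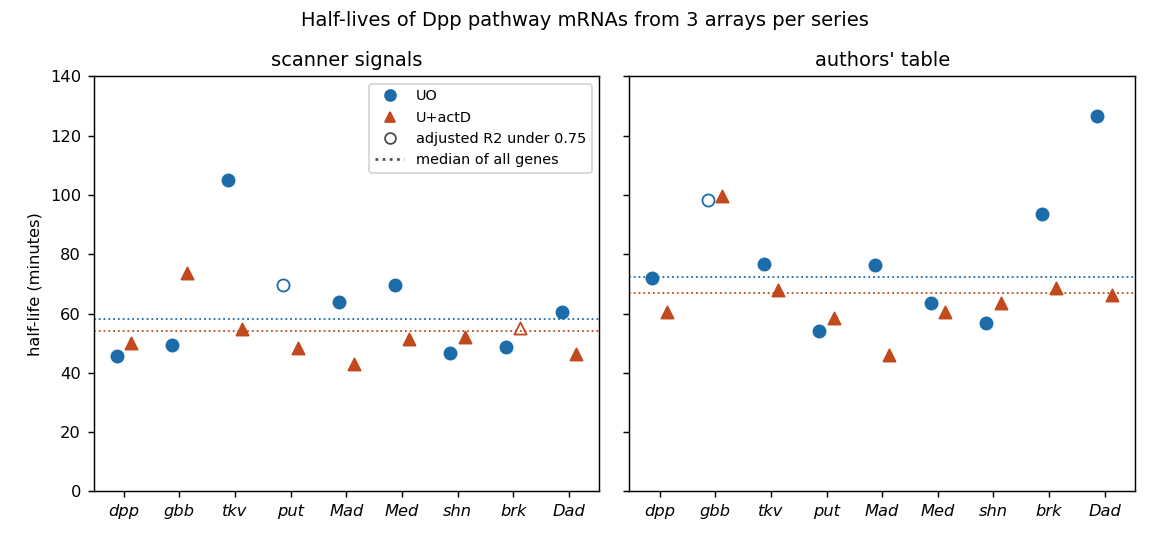
Half-lives in minutes of the 9 genes for UO (circles) and U+actD (triangles) from the scanner signals (left) and the authors' table (right), with open symbols where the adjusted R2 was under 0.75 and dotted lines at the median of all genes. In U+actD gbb is highest (73.8 and 99.7 minutes) and Mad lowest (43.1 and 45.9 minutes) in both sources, which there hold the same signals apart from array factors and missing probes.

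Both pulse arrays were taken before the chase media, so the difference between them shows how far the series lay apart before treatment. Centred on the median gene, the U+actD pulse minus the UO pulse was −1.32 log2 units for gbb, −0.22 for brk and between 0.20 (shn) and 1.14 (tkv) for the other 7 in the scanner signals, where the SD over 9661 genes was 1.26. Mad followed tkv at 1.01. In the table Mad (1.40) and Dad (1.31) stood highest, at percentiles 95.6 and 94.7 of 7895 genes, and gbb again lowest at −0.82. The 2 genes with the largest table difference at the pulse were the same as those whose half-lives differed most between the series in the table, and both measures use the pulse arrays.

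A wider list held 45 further genes of BMP signalling and of the related Activin branch, the latter with daw, myo, Actbeta, babo and Smox. Of these 45 genes, 41 were tested from the scanner and 40 from the table. The ligands scw and Actbeta, the extracellular modulator tsg and the target zen were not among the genes tested. At 3 hours 41 of 41 and 40 of 40 fell, where 98.6% and 94.8% of all genes did. These included 3 of 3 further ligands, 3 of 3 receptors, 11 of 11 extracellular modulators and 16 of 16 embryonic targets in both sources, and 8 of 8 transducers and regulators in the scanner signals (7 of 7 in the table). At 1 hour, relative to the median gene and in slope, 0 of them passed. Of all genes 0.435% (scanner) and 0% (table) passed at 1 hour. Relative to the median gene 0% and 1.58% passed at 3 hours and 0% and 0% at 1 hour, and in slope 5.32% and 2.74%. Relative to the median gene at 3 hours 20 of 41 were above 0 from the scanner and 19 of 40 from the table. Of all genes 5830 of 9661 and 4339 of 7895 were above 0. The medians of the wider list were −0.0023 and −0.07 log2 units against 0.15 and 0.09 for all genes. The highest scanner values belonged to Col4a1, a collagen IV chain that binds Dpp (1.01 ± 0.42), and Ance, an angiotensin-converting enzyme of the amnioserosa (0.99 ± 0.38), and the lowest to the ligand gene myo (−0.96 ± 0.54) and to vg, a nuclear cofactor known from the wing (−0.73 ± 0.44; SE, limma adjusted p = 0.445, 0.405, 0.596 and 0.627). In U+actD these left 25.1%, 18.3%, 2.51% and 3.89% of the pulse at 3 hours, and in UO 20.6%, 27.4%, 13.4% and 11.9%. The table put U+actD higher for Col4a1 (51.0% against 18.0% in UO) and for Ance (78.7% against 19.6%), so the order of the series for Ance was opposite to that of the scanner signals. For myo it gave 4.48% and 13.2%, and for vg 6.93% and 7.70%. The genes highest in the table were nmo, a kinase (1.44 ± 0.41), and Ance (1.16 ± 0.54), and those lowest were Snoo, a Ski family regulator (−1.32 ± 0.53), and the ligand gene daw (−1.29 ± 0.57; SE, limma adjusted p = 0.127, 0.253, 0.204 and 0.234).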

How the data were processed

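The deposited scanner files give, per spot, the mean foreground and the local background as intensity and the percent of saturated pixels, and the authors deposited a table of normalised intensity in which, per the study, each series was scaled to its spike-in RNA. Scanner software, extraction software and the annotation release are not given in the sources used here. Foreground minus background was averaged over the spots of a probe and scaled by 5 (UO) or 4 (U+actD) spike-ins. Probes above the 95th percentile of 153 negative control spots on both arrays of a time point were kept, lower values were set to that threshold, and log2 values were averaged per gene. The 6 arrays were fitted with series and time point (2 residual degrees of freedom), and with series by chase hours (1) after equalising the series by a mean leaving out 10% of genes at each end, in limma 3.58.1 (R 4.3.3), with Benjamini-Hochberg adjustment over all genes and a threshold of 0.05. Relative changes used arrays centred on their median gene. Half-lives came from least squares of log signal on chase hours, with a minimum adjusted R2 of 0.75. The same fits were run on the authors' table, and the value table of the series held the same numbers. Of 32162 probes 11518 had no gene name, and 1 probe of shn listed under a clone name was left out by the rule. The precision is limited by the number of arrays, 1 per group. The 9 genes, the wider list and the marker list were chosen with earlier results of these data known. The text names all 9 genes, the genes of the wider list past a test's threshold, or, where all or 0 passed, those with the 2 highest and 2 lowest relative changes at 3 hours, and the 2 nearest genes of each member. The fits were tested on simulated data with noise set well below that of these arrays. That checks the calculation, and the behaviour of the fits at the noise of these arrays was not tested. Alternatives were the table, another scaling, 3 background treatments, 3 filters, saturation, 1 probe per gene, arrays left out and fits without the series block or the equalising. Figures were drawn with matplotlib 3.10.9.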

Additional observations from a re-analysis of the deposited data

Results flagged for a closer look

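Several members lay on opposite sides of the median gene in UO and U+actD. Each group is 1 array, so the difference at a single time point was not tested, and the test of the slopes called 0 of 9 members. In the scanner signals at 3 hours these were gbb (−0.56 log2 units in UO, 0.78 in U+actD), tkv (1.32 and −0.10), put (0.54 and −0.52), Mad (0.23 and −0.92) and Med (0.37 and −0.30). At 1 hour they were tkv (0.55 in UO, −0.21 in U+actD), put (0.77 and −0.31) and Mad (0.25 and −0.13). In the authors' table they were Mad (0.022 in UO and −1.16 in U+actD), brk (0.51 and −0.066) and Dad (1.06 and −0.15) at 3 hours. At 1 hour in the table Mad stood at −0.32 in UO and 0.083 in U+actD, brk at 0.08 and −0.47, and Dad at 0.51 and −0.43.

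Without centring, 3 changes from pulse to 1 hour had opposite signs in the series. They were put (0.23 log2 units in UO, −2.17 in U+actD) and tkv (0.01 and −2.07) in the scanner signals, and gbb (0.15 and −0.40) in the table. In the scanner signals the median gene stood at −0.68 (UO) and −1.82 (U+actD) at that time, and in the table at −0.58 and −0.67. The UO scanner arrays were also much dimmer than those of U+actD. These differences between the series were not tested either. The UO value of Mad at 3 hours in the table was above 0 only after centring, since Mad kept 19.2% of its pulse against 20.1% for the median gene.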

How the results depend on the processing

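The fall of the members at 3 hours was called for 9 of 9 under every alternative but these: 75th percentile scaling (0 members, 0 of all genes lower and 0 higher, by construction), no series block (0 members, 0 and 0 genes), the table without that block (5 members, 3705 genes lower, 0 higher) and the scanner signals without the U+actD pulse array (8 members, all but tkv, −1.55, limma adjusted p = 0.0647). Genes higher numbered 2 and became 4 in the table, 1 with local backgrounds of 0 replaced, an alternative chosen after the data were seen, and 0 with no filter, with probes above background on all 6 arrays and at the 99th percentile threshold (0 to 3 with an array left out, 0 to 11 in the table). Under 75th percentile scaling the 3-hour sign turned for gbb (0.30), tkv (0.80), put (0.21) and Med (0.23), and the 1-hour sign for gbb (0.30), tkv (0.27), put (0.33) and Mad (0.16).

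At 1 hour 42 genes were lower, against 0 in the table, with 75th percentile scaling, without a filter and without the block, 12 with normexp, 2 with probes above background on all arrays, 15 at the 99th percentile threshold and 0 to 94 with an array left out (0 to 4 higher). Without the UO or the U+actD 3-hour array the table gave 1487 genes lower, 33 higher and 3 members lower, and 0 of each without the others save 6 lower and 1 higher without the U+actD 1-hour array. With an array left out, put ran from −1.95 to 0.014, and in the table gbb from −0.38 to 0.12 and Dad from −1.23 to 0.00052.

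Signs of the relative changes were unstable. At 3 hours the table turned tkv (−0.018), put (−0.66), Med (−0.36), brk (0.22) and Dad (0.46). Foreground without background turned gbb (−0.10), put (−0.13) and Med (−0.12), normexp gbb (−0.17), put (−0.27) and Med (−0.33), and no filter gbb (−0.17) and put (−0.27). Probes above background on all arrays (−0.026), the 99th percentile (−0.090) and the brightest probe (−0.054) turned tkv, and leaving out saturated probes put (−0.012). At 1 hour the table turned tkv (−0.32), put (−0.25), Mad (−0.12) and Dad (0.041), and normexp (−0.040) and the brightest probe (−0.076) turned Mad. With an array left out the 3-hour ranges were −0.54 to 0.76 for gbb, −0.52 to 0.54 for put, −0.83 to 0.14 for Mad and −0.27 to 0.34 for Med, and the 1-hour ranges −0.15 to 0.56 for gbb, −0.38 to 0.71 for tkv, −0.30 to 0.77 for put, −0.33 to 0.44 for Mad and −0.37 to 0.027 for Med. In the table they were −0.11 to 0.074 for tkv, −1.26 to 0.12 for Mad, −0.060 to 0.50 for brk and −0.079 to 0.99 for Dad at 3 hours, and −0.62 to 0.38 for Mad, −0.47 to 0.088 for brk and −0.50 to 0.58 for Dad at 1 hour. Genes called relative to the median numbered 0, against 10 lower and 115 higher in the table at 3 hours (0 and 0 without the block), 0 to 45 lower and 0 to 799 higher with an array left out (in the table, 0 to 307 and 0 to 818), and 0 to 94 lower and 0 to 142 higher at 1 hour. No member was among them.

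Slopes differed for 181 genes lower and 333 higher, against 68 and 148 in the table, 75 and 150 without background subtraction, 585 and 536 with normexp (1 member, Mad), 8 and 14 without saturated probes, 2 and 3 with the brightest probe, 5 and 28 without equalising, and 0 and 0 with probes above background on all arrays, at the 99th percentile and with local backgrounds of 0 replaced. The table turned dpp (−0.11), put (0.13) and brk (−0.19), and normexp dpp (−0.21), shn (−0.064) and brk (−0.024). Leaving an array out was not run for the slope, since no residual degrees of freedom remain. Half-lives of all 9 members had medians of 60.7 (UO) and 51.5 minutes (U+actD), against 76.5 and 63.6 in the table, 388 and 531.9 with 75th percentile scaling (over the 4 and 6 members that fell) and 81.3 (UO) with normexp. The median pulse difference, 0.38, was −0.15 in the table and 1.20 with normexp. Each group holds 1 array, so there were no replicate numbers to pair by, and the series was the only block. The cause of these changes was not tested. The UO scanner signals of tkv probe 2 were under the background threshold at the pulse and at 1 hour.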

Other observations

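Among the members, dpp, shn and brk had the most similar courses in the scanner signals. Over 4 relative log2 changes (1 and 3 hours in each series) dpp and shn lay 0.30 log2 units apart, dpp and brk 0.40 and shn and brk 0.42. These 3 were the closest pairs of the 9 genes, while tkv and shn were farthest apart at 2.66. The tkv course, also used for its nearest genes below, averages 2 probes that parted. Its probe 2 was set to the threshold on the UO pulse and 1-hour arrays. Distances were computed from the scanner signals only. In the UO table dpp, shn and brk lay further apart, at −0.16, −0.75 and 0.51 log2 units at 3 hours and −0.51, −0.40 and 0.08 at 1 hour. Among the other 7362 genes above background on all 6 arrays, the nearest to dpp were Bap170 (0.14) and disco (0.15), to gbb Cyt-b5 and Caf1-55 (both 0.08), to tkv stw (0.06) and Rnf11 (0.15), and to put ATPCL (0.08) and CG33199 (0.13). Those nearest to Mad were Hydr2 (0.09) and CG12316 (0.11), to Med CG32533 and dmpd (both 0.11), to shn CG32365 and CG10333 (both 0.14), to brk Ctps (0.14) and CG6254 (0.16), and to Dad Pp2B-14D (0.02) and BtbVII (0.05). These distances rest on 6 arrays, share the pulse arrays and describe likeness only.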
